A study of Mus musculus with 96 samples.

Results

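Rab GTPases were examined as a gene family through the open chromatin around their genes in mouse liver. The 2 deposited peak tables list 77002 ATAC-seq peaks, of which 219 had a Rab gene as that of the nearest transcription start site (TSS) at a distance of at most 50 kb. They were chosen by gene symbol and distance, with no measured value in that rule, but with earlier results of these data known. The hepatocyte table held 105 of them among its 46832 peaks, 60 at promoters (within 1 kb of the TSS) and 45 distal, at 40 genes. The macrophage table held 114 among 30170 peaks, 69 at promoters and 45 distal, at 42 genes. Of the 46 genes in all, 36 had a peak in both tables. Rab36, Rab40b, Rab44 and Rab6b had one only in the hepatocyte table, and Rab27a, Rab31, Rab37, Rab39, Rab42 and Rab7b only in the macrophage table. A further 13 RefSeq genes with a symbol of the same form were not analysed here. A peak carries the name of the gene whose TSS is nearest, which does not show that it regulates that gene.

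ATAC-seq, in which a transposase cuts accessible DNA, was run on nuclei that carry a tag in 1 cell type and were pulled out of liver with beads (INTACT). Hepatocyte nuclei came from HEP-INTACT mice and macrophage nuclei from MAC-INTACT mice, all female. Fasted mice lost access to food at ZT12 and were taken 3, 8, 16 or 24 h later, which is ZT15, ZT20, ZT4 and ZT12, and mice fed ad libitum were taken at each of these times. Each of the 16 groups held 4 mice, and a library came from 1 mouse. Fasted and fed mice of a cell type thus share the tag, the sex and the hour. The strain, the age and the driver of the tag are not given in the sources used here. Replicate numbers are names only and pair no mice.

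Rab proteins are small GTPases that mark the membranes of the secretory and endocytic routes. A guanine nucleotide exchange factor loads a Rab with GTP, the active Rab recruits effectors such as tethers and motor adaptors, and a GTPase-activating protein switches it off. Prenyl groups anchor Rabs in membranes, and GDP dissociation inhibitors carry the inactive form through the cytosol. In hepatocytes these routes move lipoproteins, plasma proteins, receptors and bile canalicular transporters. In macrophages they shape phagosomes, lysosomes and cytokine release. Several Rabs also take part in autophagosome formation and in lipid droplet turnover, which are active in fasting liver.

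Promoter sequences are shown for 6 genes whose TSS peak was called opened with fasting in both cell types at the same time, the calls being given further on. Each run is the part of the peak upstream of the TSS and within the RefSeq promoter window, which the Rab40c peak overruns, read 5′ to 3′ along the gene from RefSeq, build GRCm38.p6. Capitals mark the GC box GGGCGG and the CCAAT box, each on either strand, as CCGCCC and ATTGG on the other. Rab10, a Rab of exocytic and glucose transporter vesicles, is at chr12:3309970-3310166 on the minus strand. Rab14, of the trans-Golgi and endosomes, is at chr2:35201121-35201243 on the minus strand. Rab33b, a Golgi Rab that binds the autophagy protein ATG16L1, is at chr3:51483886-51483965 on the plus strand. Rab40c, which carries a SOCS box for ubiquitin ligase assembly, is at chr17:25919781-25919964 on the minus strand. Rab4b, a recycling endosome Rab, is at chr7:27178914-27179114 on the minus strand. Rab7, the Rab of late endosomes and lysosomes, is at chr6:88045271-88045422 on the minus strand.
Rab10: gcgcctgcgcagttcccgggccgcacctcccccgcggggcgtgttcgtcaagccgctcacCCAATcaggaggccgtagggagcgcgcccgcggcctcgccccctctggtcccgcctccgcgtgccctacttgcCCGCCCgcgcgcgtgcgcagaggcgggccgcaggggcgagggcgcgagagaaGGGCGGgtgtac
Rab14: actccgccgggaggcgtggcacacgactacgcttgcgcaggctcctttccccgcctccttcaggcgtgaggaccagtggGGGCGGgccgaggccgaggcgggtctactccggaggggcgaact
Rab33b: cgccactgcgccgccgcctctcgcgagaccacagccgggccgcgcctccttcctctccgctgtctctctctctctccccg
Rab40c: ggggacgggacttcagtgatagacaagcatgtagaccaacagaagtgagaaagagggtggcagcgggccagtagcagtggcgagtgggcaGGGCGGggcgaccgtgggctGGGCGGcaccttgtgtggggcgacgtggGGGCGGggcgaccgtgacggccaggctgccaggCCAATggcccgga
Rab4b: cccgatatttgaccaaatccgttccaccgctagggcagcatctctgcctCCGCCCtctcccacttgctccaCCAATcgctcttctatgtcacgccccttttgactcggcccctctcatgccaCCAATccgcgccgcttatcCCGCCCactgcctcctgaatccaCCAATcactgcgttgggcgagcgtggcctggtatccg
Rab7: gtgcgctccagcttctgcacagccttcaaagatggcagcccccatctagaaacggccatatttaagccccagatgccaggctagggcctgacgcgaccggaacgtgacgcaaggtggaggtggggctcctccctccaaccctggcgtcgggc
The Rab4b run holds 5 of these boxes, Rab40c 4, Rab10 3 and Rab14 1, and neither box occurs in the Rab33b and Rab7 runs. Their GC content lay between 60.7% in Rab4b and 77.7% in Rab10.

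RefSeq promoter windows, 250 bases before to 50 after a TSS, were found for 38 of the 46 genes. GGGCGG stood in the window of 30 of the 38 genes (78.9%), against 68.9% of the 9069 genes with a promoter peak in either table and 38.2% of all 27025 genes. CCAAT stood in 23 of 38 (60.5%), against 43.7% and 41.1%. For 4 further motifs the Rab genes, the genes with a promoter peak and all genes compared as follows. The ETS site CCGGAAG was found in 13.2%, 20.3% and 9.93%. The E box CACGTG was found in 15.8%, 12.3% and 8.09%. The core TGACGT of the cyclic AMP response element was found in 15.8%, 13.5% and 8.37%. The forkhead site GTAAACA was found in 2.63%, 3.35% and 4.05%, the Rab gene being Rab43. Both strands were read, and overlapping matches to different motifs each counted. Median GC content was 63.3% in Rab windows, 60.7% in genes with a promoter peak and 52.8% in all genes.

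Levels are normalized reads per 200 bp peak. Reads in peaks numbered 4334668 ± 821505 per hepatocyte mouse (SD, n = 32; 2458156 to 6098645) and 3492422 ± 693581 per macrophage mouse (SD, n = 32; 1729720 to 4637873). All 219 Rab peaks passed the filter on low values. The tagged nuclei carried the marks of their labels: 12 of 12 hepatocyte marker genes had a peak in the hepatocyte table and 1 of 12 (Ttr) in the macrophage table, while 12 of 12 macrophage marker genes had one in the macrophage and 2 of 12 in the hepatocyte table. Markers of other liver cells had peaks too. In the hepatocyte table these were 6 of 10 sinusoidal endothelial, 3 of 7 cholangiocyte, 1 of 10 stellate, 1 of 9 lymphocyte and 0 of 7 neutrophil genes. In the macrophage table they were 5 of 10, 2 of 7, 2 of 10, 1 of 9 and 2 of 7. The share of other cells among the nuclei was not tested. Among hepatocyte libraries, the mean correlation of a mouse with its group was lowest in the fasted 16 h group. It was 0.878 in mouse 3 and 0.893 to 0.909 in the other mice of that group. Without mouse 3, 15 Rab peaks opened and 7 closed at 16 h, against 20 and 10 with it. Since nuclei were measured in bulk, less signal in each nucleus and loss of signal from some nuclei cannot be told apart.

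In hepatocyte nuclei, Rab promoters that were called mostly opened with fasting and distal Rab peaks went both ways. A peak is called opened where fasted mice had more reads than fed mice, and closed where they had fewer, at an adjusted p under 0.05 (limma, Benjamini-Hochberg over all tested peaks of the table). Peaks named for the largest change in a comparison were picked among called peaks without overlap between fasted and fed mice. For them a lack of overlap comes from the choice and adds no support. Over the 60 promoter peaks, 6 opened at 3 h, 13 at 8 h, 14 at 16 h and 29 at 24 h. The share of all hepatocyte promoter peaks that opened was 8.8%, 19.0%, 20.2% and 41.1%, so the 29 of 60 at 24 h stand beside a broad opening of promoters. Closed Rab promoters numbered 1, 1, 1 and 2, beside 4.18%, 4.23%, 3.02% and 2.35% of all promoter peaks. Of the 45 distal peaks, 5, 6, 6 and 7 opened, beside 12.6%, 21.0%, 18.4% and 16.9% of all distal peaks. Closed distal peaks numbered 6, 11, 9 and 10, beside 13.7%, 18.8%, 18.0% and 16.2%. The median log2 fold change (fasted over fed) at 24 h was 0.28, against 0.26 over all promoter peaks. Over distal peaks it was 0.05, against 0.06 over all.

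Part of the promoter count moved with the scaling. The median of all tested hepatocyte peaks was shifted by 0.16 on the log2 scale at 24 h, and that of promoter peaks by 0.26. After the libraries were centred on their medians, 22 Rab promoters opened and 2 closed at 24 h, beside 26.7% and 2.95% of all promoter peaks. Over all 105 peaks the split was 28 opened and 15 closed after centring, against 36 and 12 as deposited (beside 25.3% and 11.4% of all peaks as deposited, 16.2% and 13.1% centred). At 8 h it was 12 and 13 centred, against 19 and 12 (beside 20.3% and 13.7% as deposited, 14.7% and 17.0% centred). At 16 h it was 14 and 13 centred, against 20 and 10 (beside 19.0% and 12.8%, 14.1% and 14.6% centred), and at 3 h it was 11 and 8, against 11 and 7 (beside 11.3% and 10.3%, 10.9% and 11.1% centred). Of the peaks described further on, centring ended the 24 h calls of the promoters of Rab7 (-52 bp, adjusted p = 0.133), Rab6a (-201 bp, 0.0545) and Rab5c (-119 bp, 0.0655) and of Rab36 +8796 bp (0.0698). It also ended those of the promoter peaks Rab8a -30 bp (0.174), Rab8b -72 bp (0.090) and Rab11a -357 bp (0.0595). In hepatocyte mice at 24 h, the summed level of the 136 peaks at the 12 hepatocyte marker genes was 10895 to 12154 in fasted and 8239.8 to 9062 in fed mice. Sums at markers of other cells were higher in fasted mice too for sinusoidal endothelial cells (571 to 627 against 499 to 560). The same held for macrophages (399.0 to 442.9 against 360.5 to 398.6) and lymphocytes (76.6 to 95.0 against 50.1 to 67.4). Cholangiocyte and stellate sums overlapped between fasted and fed mice. The part of these sums in the result was not tested. With other scalings and tests, 18 Rab peaks opened and 16 closed at 24 h by DESeq2, 19 and 18 by edgeR with TMM, and 13 and 13 after quantile normalization. The shares of all peaks called under these settings are not given here, so whether the Rab split differs from theirs was not tested.

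**Figure D1:**
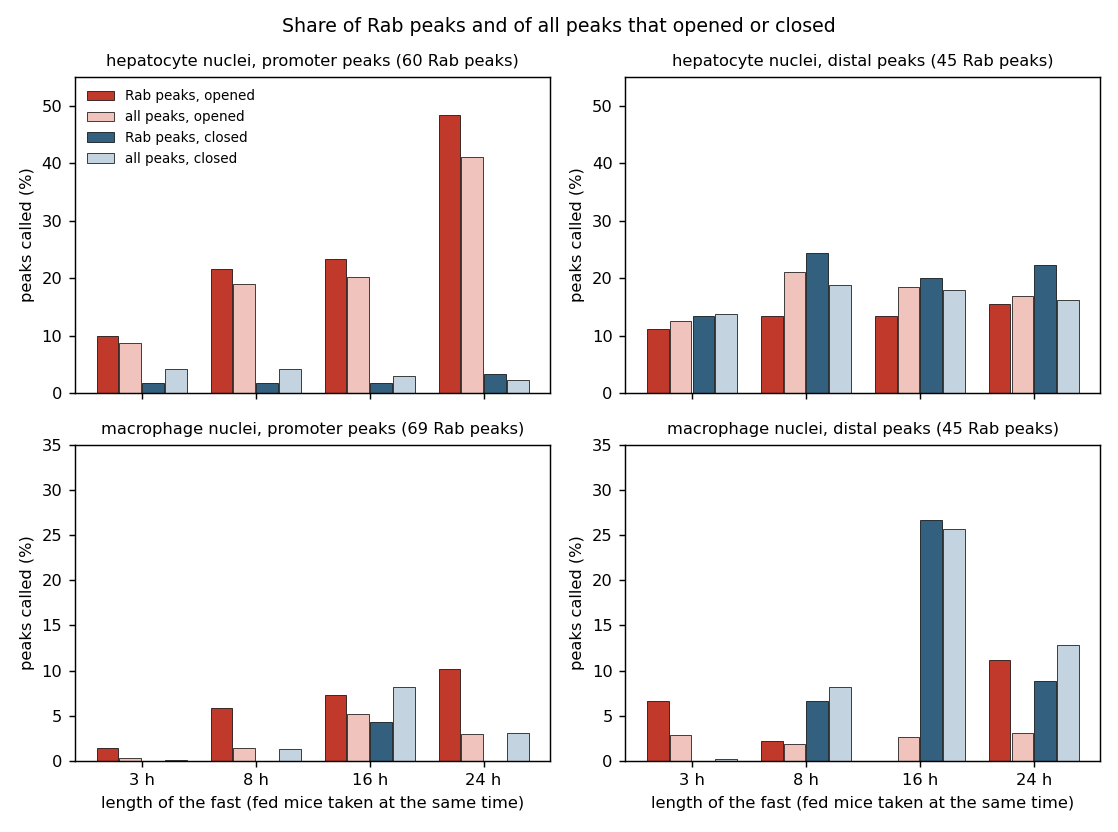
Share of Rab peaks (dark bars, in percent) opened (red) and closed (blue) with fasting at each time, by cell type and by promoter and distal class, beside the share over all tested peaks of that class (pale bars). Hepatocyte promoters reached 29 of 60 opened at 24 h, beside 41.1% of all hepatocyte promoter peaks, and macrophage distal peaks reached 12 of 45 closed at 16 h, beside 25.7%.

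At 1 or more times, 69 of the 105 hepatocyte peaks were called, beside 67.4% of all tested peaks, and 33 of the 40 genes had such a peak. The genes without one were Rab12, Rab13, Rab26, Rab28, Rab29, Rab35 and Rab3d. Calls at all 4 times were made for 6 peaks, beside 4.19% of all peaks: Rab11b at +519 bp, both Rab33b promoter peaks, the Rab44 peak at +21993 bp and the Rab23 peaks at +13759 and +14075 bp. Calls that no single omission of a mouse removed numbered 11 of 18 at 3 h, 15 of 31 at 8 h, 17 of 30 at 16 h and 32 of 48 at 24 h. At 24 h, 13 of 25 peaks opened and 2 closed among endoplasmic reticulum (ER) and Golgi Rabs, with a median log2 fold change of 0.30. Among early endosome and recycling Rabs, 12 of 41 peaks opened and 6 closed (median 0.16). Among Rabs of exocytosis and the cilium, 8 of 22 peaks opened and 4 closed (median 0.19). Among Rabs of late endosomes, lysosomes and autophagosomes, 3 of 17 peaks opened and 0 closed (median 0.19). These stand beside 25.3% of all peaks opened and 11.4% closed. Promoter peaks made up 15 of the 25, 19 of the 41, 15 of the 22 and 11 of the 17, of which 9, 10, 8 and 2 opened, beside 41.1% of all promoter peaks. Over all hepatocyte peaks the median was 0.16.

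Of the ER and Golgi Rabs, Rab33b opened at both promoter peaks at every time. At 8 h its TSS peak (+20 bp, chr3:51483886-51484086, mm10) had 187, 188, 176 and 159 normalized reads in fasted mice, against 113, 125, 85.7 and 101 in fed mice. The groups did not overlap, and the log2 fold change was 0.74 ± 0.11 (limma adjusted p = 1.41e-06) (log2 fold changes are given ± SE). In its 5′ UTR (+238 bp) at 16 h it had 148, 149, 171 and 184 normalized reads in fasted mice, against 77.6, 84.4, 112 and 87.1 in fed mice. Each fasted mouse was above each fed mouse, with a log2 fold change of 0.84 ± 0.11 (limma adjusted p = 3.80e-07) and of 0.64, 0.63 and 0.61 at 3, 8 and 24 h. Rab43, an ER-to-Golgi Rab, had at its intronic peak of +877 bp at 8 h 71.1, 62.1, 62.1 and 45.5 normalized reads in fasted mice, against 23.9, 32.5, 31.3 and 27.4 in fed mice. Fasted mice were higher with no overlap (1.01 ± 0.19 (limma adjusted p = 6.47e-05)), and the change was 0.79 at 16 h (adjusted p = 0.00139) but -0.32 at 24 h, which did not pass (0.172). The Rab43 peak at +13093 bp closed at 8, 16 and 24 h, by -0.43, -0.69 and -0.45 on the log2 scale. Leaving out 1 mouse removed the calls of Rab43 +13093 bp at 8 h (adjusted p = 0.0757 to 0.172 without fasted mouse 3 or 4 or fed mouse 1, 2 or 3) and Rab43 +13093 bp at 24 h (adjusted p = 0.0605 to 0.124 without fasted mouse 2 or 4 or fed mouse 1 or 2). Another scaling ended the call of Rab33b +20 bp at 24 h (quantile normalization, adjusted p = 0.101).

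Rab36 changed in opposite directions at 3 and 16 h, which were also different hours of the day. Its intronic peak at +8796 bp had at 3 h 57.9, 54.5, 61.1 and 51.3 normalized reads in fasted mice, against 78.9, 81.9, 80.9 and 79.1 in fed mice. All fasted mice were lower (-0.50 ± 0.14 (limma adjusted p = 0.00672)). At 16 h the same peak had 151, 136, 132 and 98.6 normalized reads in fasted mice, against 69.9, 75.3, 80.6 and 79.7 in fed mice. Here all fasted mice were higher (0.73 ± 0.14 (limma adjusted p = 8.14e-05)), and the peak was still open at 24 h (0.39, adjusted p = 0.0237). Rab2a, which acts between ER and Golgi, opened in its 5′ UTR (+155 bp) at 3 h, with 61.9, 54.5, 74.2 and 73.4 normalized reads in fasted mice, against 37.9, 47.9, 40.4 and 28.3 in fed mice. The lowest fasted mouse lay above the highest fed one (0.76 ± 0.20 (limma adjusted p = 0.00576)), and no later time passed. The peak nearest to Rab44, an atypical large Rab, lies at +21993 bp in the 3′ UTR of Cpne5 and had at 8 h 125, 96.04, 89.1 and 130.4 normalized reads in fasted mice, against 64.3, 58.5, 70.4 and 64.9 in fed mice. It was higher in each fasted mouse (0.74 ± 0.13 (limma adjusted p = 2.87e-05)) and opened by 0.59, 0.42 and 0.42 at 3, 16 and 24 h. At 24 h the ER-to-Golgi Rabs Rab1a (-111 bp, 0.50) and Rab1b (-90 bp, 0.47), Rab18 of lipid droplets (-71 bp, 0.27) and Rab6a of the Golgi (-201 bp, 0.33) opened at their promoters, with limma adjusted p of 3.69e-05, 5.43e-04, 0.00249 and 0.0174. Omission of 1 mouse removed the calls of Rab36 +8796 bp at 24 h (adjusted p = 0.0557 to 0.104 without fasted mouse 2 or 3 or fed mouse 2 or 3), Rab44 +21993 bp at 16 h (adjusted p = 0.057 without fasted mouse 3) and Rab6a -201 bp at 24 h (adjusted p = 0.10 without fed mouse 2). Other scalings or tools gave no call for Rab36 +8796 bp at 24 h (quantile normalization, edgeR and DESeq2, adjusted p = 0.113 to 0.188), Rab44 +21993 bp at 16 h (quantile normalization, adjusted p = 0.0608), Rab44 +21993 bp at 24 h (quantile normalization, edgeR and DESeq2, adjusted p = 0.0798 to 0.117), Rab18 -71 bp at 24 h (quantile normalization, edgeR and DESeq2, adjusted p = 0.0763 to 0.935) and Rab6a -201 bp at 24 h (quantile normalization, edgeR and DESeq2, adjusted p = 0.173 to 0.625).

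Distal peaks of early endosome and recycling Rabs went both ways, with 3, 3, 4 and 2 of 22 opened and 2, 6, 4 and 5 closed at 3, 8, 16 and 24 h, beside 12.6%, 21.0%, 18.4% and 16.9% of all distal peaks opened and 13.7%, 18.8%, 18.0% and 16.2% closed. Rab5b, a Rab of early endosome fusion, had at its intronic peak of +6711 bp at 8 h 17.1, 7.06, 8.05 and 7.59 normalized reads in fasted mice, against 30.3, 31.6, 41.8 and 29.8 in fed mice. No fasted mouse reached the lowest fed mouse, and the log2 fold change was -1.63 ± 0.30 (limma adjusted p = 4.98e-05). It also closed at 3 h (-1.28) and 24 h (-0.94), while its change of -0.48 at 16 h did not pass (adjusted p = 0.217). The peak nearest to its paralog Rab5c lies in an intron of Kcnh4 (-9088 bp, minus meaning upstream) and had at 24 h 20.6, 13.3, 23.4 and 19.6 normalized reads in fasted mice, against 57.5, 36.6, 57.1 and 57.7 in fed mice. Fasted mice were lower without overlap (-1.35 ± 0.19 (limma adjusted p = 3.40e-06)), after -1.15 at 16 h and -0.57 at 8 h. The promoters of both genes opened at 24 h, Rab5b at -162 bp by 0.30 and Rab5c at -119 bp by 0.27 (limma adjusted p = 0.00494 and 0.0136). In this fit, promoter and distal peaks named for 1 gene thus had changes of opposite sign at 24 h. Both promoter changes were close to the median of all hepatocyte promoter peaks at 24 h (0.26). After quantile normalization they were 0.03 at Rab5b and 0.01 at Rab5c. Rab21, which takes integrins into endosomes, had at its intergenic peak of -21120 bp at 8 h 8.54, 5.65, 16.1 and 6.898 normalized reads in fasted mice, against 22.9, 26.9, 22.99 and 22.6 in fed mice. The peak closed (-1.27 ± 0.25 (limma adjusted p = 1.35e-04)) and was closed at 16 h (-1.05). Its intronic peak at +2664 bp had at 24 h 25.5, 14.2, 23.4 and 14.7 normalized reads in fasted mice, against 44.6, 49.3, 33.3 and 32.4 in fed mice. That was lower in every fasted mouse (-0.99 ± 0.22 (limma adjusted p = 8.70e-04)). Calls lost with 1 mouse left out were those of Rab5b +6711 bp at 24 h (adjusted p = 0.0553 without fed mouse 2), Rab5c -9088 bp at 8 h (adjusted p = 0.0574 to 0.116 without fasted mouse 3 or 4) and Rab5c -119 bp at 24 h (adjusted p = 0.0657 without fed mouse 1). Rab21 also had a peak at +16724 bp that opened at 16 h (0.44). Calls not made under another scaling or tool were those of Rab21 +16724 bp at 16 h (quantile normalization, edgeR and DESeq2, adjusted p = 0.0756 to 0.122), Rab5b -162 bp at 24 h (quantile normalization, edgeR and DESeq2, adjusted p = 0.102 or higher) and Rab5c -119 bp at 24 h (quantile normalization, edgeR and DESeq2, adjusted p = 0.161 to 0.948). Centring ended the Rab21 call too (0.0849).

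Rab17, an epithelial Rab of polarised transport, opened at 3 h and closed at 16 and 24 h at an intronic peak (+4456 bp). At 3 h it had 42.4, 53.00, 43.6 and 46.6 normalized reads in fasted mice, against 14.8, 30.2, 35.7 and 31.2 in fed mice. Fasted mice were higher with no overlap (0.75 ± 0.22 (limma adjusted p = 0.0123)), a call lost without fed mouse 1 (adjusted p = 0.109). At 16 h it had 15.5, 19.7, 12.02 and 27.1 normalized reads in fasted mice, against 30.1, 29.3, 35.4 and 31.9 in fed mice. Fasted mice were then all lower (-0.76 ± 0.22 (limma adjusted p = 0.00826)), and 24 h gave -0.56 (adjusted p = 0.0438). Rab4a, of fast recycling, diverged within its locus at 24 h. Its intronic peak at +7702 bp had 58.5, 55.9, 55.2 and 54.8 normalized reads in fasted mice, against 36.7, 33.4, 32.7 and 42.00 in fed mice. It was higher in each fasted mouse (0.61 ± 0.18 (limma adjusted p = 0.00931)). The intergenic peak at -28564 bp had 33.7, 36.96, 45.4 and 29.5 normalized reads in fasted mice, against 53.2, 59.7, 53.7 and 64.7 in fed mice. That peak was lower in each fasted mouse (-0.65 ± 0.14 (limma adjusted p = 6.40e-04)), having opened at 3 h (0.47, adjusted p = 0.0124). Single omissions also removed the calls of Rab17 +4456 bp at 16 h (adjusted p = 0.0512 without fasted mouse 3) and Rab17 +4456 bp at 24 h (adjusted p = 0.0518 to 0.153 without fasted mouse 1, 2, 3 or 4 or fed mouse 1, 3 or 4). Another scaling ended the calls of Rab17 +4456 bp at 16 h (quantile normalization, adjusted p = 0.0597) and Rab17 +4456 bp at 24 h (quantile normalization, adjusted p = 0.0534).

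Rab14 and Rab11b, of endosomal recycling, opened at most of their called peaks. At 8 h the intronic Rab14 promoter peak (+390 bp) had 39.8, 56.5, 66.1 and 79.3 normalized reads in fasted mice, against 41.3, 48.3, 25.8 and 27.4 in fed mice. The groups overlapped, and the log2 fold change was 0.73 ± 0.19 (limma adjusted p = 0.00314). At 16 h the peak at +30598 bp, in an exon of Cntrl and nearest to Rab14, had 34.5, 48.8, 62.5 and 45.4 normalized reads in fasted mice, against 33.6, 29.3, 25.5 and 26.6 in fed mice. The groups did not overlap (0.67 ± 0.19 (limma adjusted p = 0.00739)). The intronic Rab11b peak at +519 bp opened at every time, with log2 fold changes of 0.33, 0.37, 0.36 and 0.45. At 24 h it had 127, 129, 103 and 115 normalized reads in fasted mice, against 77.7, 70.00, 94.6 and 105 in fed mice. The highest fed mouse lay above the lowest fasted one (limma adjusted p = 0.00284). With 1 mouse left out, calls were lost at Rab11b +519 bp at 3 h (adjusted p = 0.0591 to 0.14 without fasted mouse 1 or 3 or fed mouse 1, 2 or 3) and Rab11b +519 bp at 16 h (adjusted p = 0.0631 to 0.0701 without fasted mouse 2 or fed mouse 3). A further Rab14 peak at -14149 bp closed at 8 h, with 30.6, 25.4, 26.4 and 35.2 normalized reads in fasted mice, against 42.2, 39.9, 43.9 and 41.7 in fed mice. All fasted mice were lower (-0.49 ± 0.16 (limma adjusted p = 0.0152)), a call lost without fasted mouse 2 (0.0534). Other scalings or tools ended the calls of Rab11b +519 bp at 8 h (quantile normalization, adjusted p = 0.0603), Rab11b +519 bp at 16 h (quantile normalization, edgeR and DESeq2, adjusted p = 0.079 to 0.136) and Rab11b +519 bp at 24 h (quantile normalization, adjusted p = 0.0735). At 24 h the Rab11b change was 0.27 after quantile normalization.

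Among late endosome, lysosome and autophagosome Rabs, 1, 2, 1 and 3 of 17 hepatocyte peaks opened at 3, 8, 16 and 24 h and 0, 1, 1 and 0 closed, beside 11.3%, 20.3%, 19.0% and 25.3% of all peaks opened and 10.3%, 13.7%, 12.8% and 11.4% closed. Rab9, which returns cargo from late endosomes to the Golgi, had the lowest mean level of all hepatocyte Rab peaks at +12948 bp, 20.7 normalized reads. At 8 h this intronic peak had 12.8, 22.6, 24.7 and 57.9 normalized reads in fasted mice, against 11.02, 5.57, 11.1 and 11.9 in fed mice. The groups did not overlap, though fasted mouse 4 was far above the other fasted mice (1.25 ± 0.35 (limma adjusted p = 0.00488)), and without it the adjusted p was 0.0527. At 3 h the change was 1.07 (adjusted p = 0.0244), a call lost without fasted mouse 1, 3 or 4 or fed mouse 3 or 4 (0.0538 to 0.106). Upstream of Rab7 (-10605 bp) 24 h gave 49.5, 47.4, 40.2 and 42.6 normalized reads in fasted mice, against 26.9, 27.05, 23.8 and 25.4 in fed mice. All fasted mice were higher (0.75 ± 0.19 (limma adjusted p = 0.00328)). The Rab7 promoter peak (-52 bp) closed at 8 h (-0.26) and opened at 24 h (0.27), with limma adjusted p of 0.0478 and 0.0425. The peak at -11 bp of Rab24, a Rab linked to autophagy, is annotated to the promoter of the neighbouring Prelid1. It had at 24 h 77.1, 76.8, 63.6 and 74.5 normalized reads in fasted mice, against 56.3, 44.5, 55.8 and 50.7 in fed mice. It was higher in every fasted mouse (0.48 ± 0.13 (limma adjusted p = 0.00381)). Both Rab7 promoter calls were lost on omission of 1 mouse, Rab7 -52 bp at 8 h (adjusted p = 0.0607 to 0.193 without fasted mouse 1, 2 or 3 or fed mouse 1, 2 or 3) and Rab7 -52 bp at 24 h (adjusted p = 0.0519 to 0.11 without fasted mouse 1, 2, 3 or 4 or fed mouse 1, 2 or 3). Another normalization or tool ended the calls of Rab24 -11 bp at 24 h (DESeq2, adjusted p = 0.0574) and Rab7 -52 bp at 24 h (quantile normalization, edgeR and DESeq2, adjusted p = 0.295 to 0.721).

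Rab40c and Rab23 gave the deepest closures of the exocytosis and cilium group. The peak at -5829 bp of Rab40c, at the transcription end of Pigq, had at 16 h 30.2, 33.2, 16.8 and 6.11 normalized reads in fasted mice, against 72.7, 79.5, 60.9 and 76.5 in fed mice. No fasted mouse reached a fed one (-1.86 ± 0.25 (limma adjusted p = 7.10e-07)). It was closed at 8 h (-1.33) and 24 h (-1.54) and did not pass at 3 h (-0.31). The Rab40c promoter went the other way. At 24 h its peak at -447 bp had 269.7, 268, 243 and 287 normalized reads in fasted mice, against 179.8, 207, 222 and 192 in fed mice. Each fasted mouse was above each fed mouse (0.41 ± 0.08 (limma adjusted p = 2.99e-04)). Within the gene (+7711 bp), 3 h gave 22.8, 26.00, 20.7 and 33.2 normalized reads in fasted mice, against 35.3, 47.2, 44.6 and 36.99 in fed mice. This peak was lower in all fasted mice (-0.65 ± 0.19 (limma adjusted p = 0.013)), a call lost without fasted mouse 3 (adjusted p = 0.0564). Rab23, a negative regulator of hedgehog signalling at the cilium, had in its intron (+13759 bp) at 8 h 36.3, 39.5, 45.97 and 43.5 normalized reads in fasted mice, against 90.9, 90.99, 109 and 112 in fed mice. Fasted mice were lower with a clear gap (-1.25 ± 0.14 (limma adjusted p = 1.83e-08)), and the log2 fold change was -0.82, -1.03 and -0.93 at 3, 16 and 24 h. At 24 h the promoter of Rab8a (-191 bp), an exocytic and ciliary Rab with the highest mean level of the hepatocyte Rab peaks, had 361, 417, 329.6 and 389.7 normalized reads in fasted mice, against 289, 308, 318 and 274 in fed mice. The groups did not overlap (0.33 ± 0.07 (limma adjusted p = 4.85e-04)). Another scaling ended the promoter calls of Rab40c -447 bp at 24 h (quantile normalization, adjusted p = 0.131) and Rab8a -191 bp at 24 h (quantile normalization, adjusted p = 0.37). The Rab40c change at -447 bp was then 0.13.

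**Figure D2:**
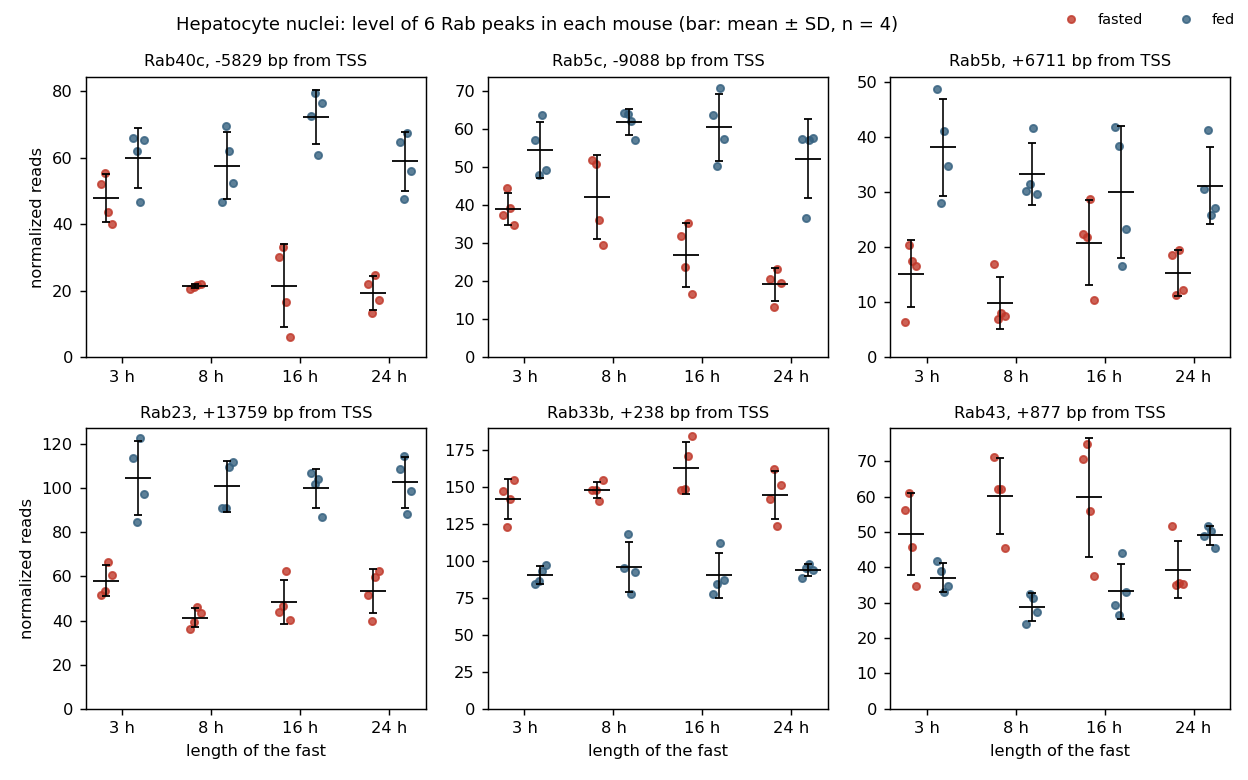
Normalized reads of each hepatocyte mouse at Rab peaks named in the text, fasted left of fed at each time, with bars for the mean ± SD (n = 4). Rab5b, Rab5c, Rab40c and Rab23 are lower in fasted mice away from the promoter, and Rab33b is higher at its promoter at every time.

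At 24 h the log2 fold changes of the 29 opened promoter peaks lay between 0.21 and 0.61, all under 2-fold. They include both Rab8 genes, all 5 promoter peaks of the recycling genes Rab11a and Rab11b, 3 Rab40c peaks and 2 Rab1a peaks. After median centring, the calls of Rab8b -72 bp (limma adjusted p = 0.090), Rab8a -30 bp (0.174) and Rab11a -357 bp (0.0595) were not kept. The closed promoters were Rab40b at -152 bp, with 91.2 ± 10.3 normalized reads in fasted and 123 ± 13.4 in fed mice (SD, n = 4 each; -0.42 ± 0.15 (limma adjusted p = 0.0257)), and Rab20, a Rab of phagosomes and hypoxia, at -182 bp, with 64.6 ± 3.26 normalized reads in fasted and 80.01 ± 7.12 in fed mice (-0.30 ± 0.12 (limma adjusted p = 0.0447)). At 16 h the closed promoter was that of Rab17 (-107 bp, -0.51 ± 0.17 (limma adjusted p = 0.0185)). At 3 h it was Rab4b (-131 bp, -0.27 ± 0.08 (limma adjusted p = 0.0208)), a peak that opened at 24 h (0.36 ± 0.08 (limma adjusted p = 0.00139)). With 1 mouse left out, calls were lost at Rab40b -152 bp at 24 h (adjusted p = 0.0613 to 0.0733 without fasted mouse 2 or 3 or fed mouse 3 or 4), Rab20 -182 bp at 24 h (adjusted p = 0.0843 to 0.137 without fasted mouse 1, 2 or 4 or fed mouse 1 or 3), Rab17 -107 bp at 16 h (adjusted p = 0.166 without fasted mouse 3), Rab4b -131 bp at 3 h (adjusted p = 0.0501 to 0.094 without fasted mouse 3 or 4 or fed mouse 2 or 4), Rab8a -30 bp at 24 h (adjusted p = 0.0537 to 0.126 without fasted mouse 2 or 4 or fed mouse 1 or 4), Rab8b -72 bp at 24 h (adjusted p = 0.0803 to 0.166 without fasted mouse 4 or fed mouse 1 or 2), Rab11a -357 bp at 24 h (adjusted p = 0.0614 to 0.0856 without fasted mouse 1 or 2 or fed mouse 2 or 3) and Rab11a -2 bp at 24 h (adjusted p = 0.060 without fasted mouse 2). Calls that another scaling or tool ended were those of Rab4b -131 bp at 24 h (quantile normalization, adjusted p = 0.451), Rab8a -30 bp at 24 h (quantile normalization, edgeR and DESeq2, adjusted p = 0.482 to 0.524), Rab8b -72 bp at 24 h (quantile normalization, edgeR and DESeq2, adjusted p = 0.178 to 0.551), Rab11a -357 bp at 24 h (quantile normalization, edgeR and DESeq2, adjusted p = 0.0751 to 0.157), Rab11a -2 bp at 24 h (quantile normalization, edgeR and DESeq2, adjusted p = 0.0757 to 0.0882), Rab11b -137 bp at 24 h (quantile normalization, adjusted p = 0.0736), Rab40c -825 bp at 24 h (quantile normalization, adjusted p = 0.0784) and Rab40c -167 bp at 24 h (quantile normalization, adjusted p = 0.267).

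**Figure D3:**
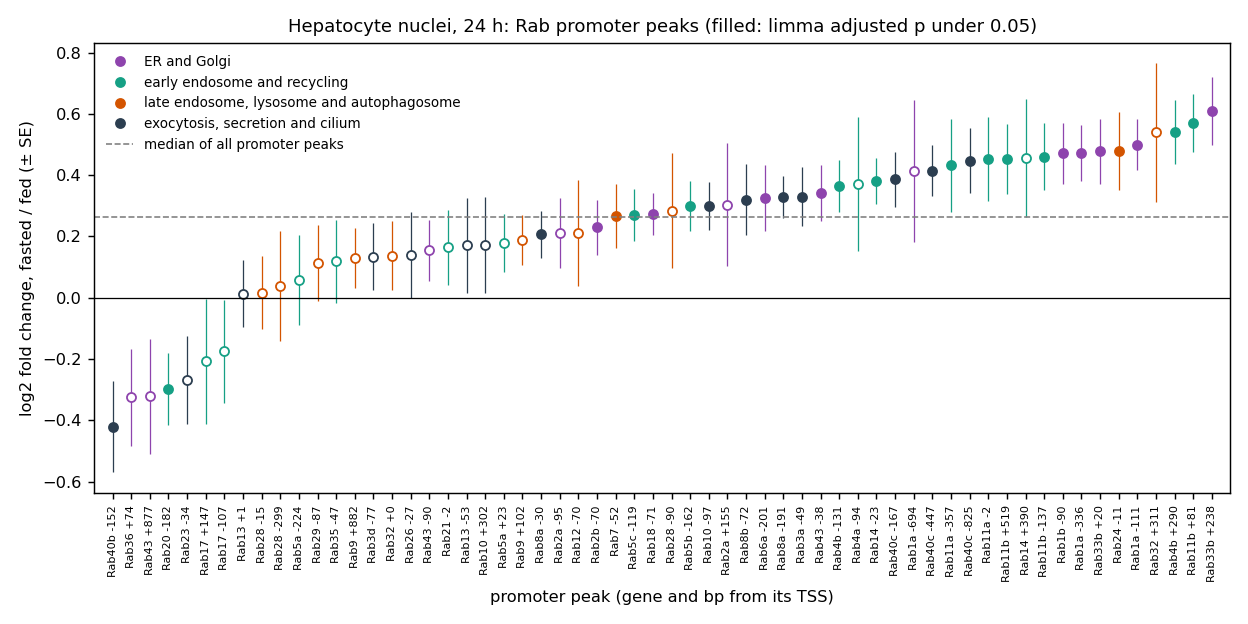
Log2 fold change (fasted over fed) at 24 h of each hepatocyte Rab promoter peak with its SE, ordered by size and coloured by role, filled where the adjusted p was under 0.05, with a dashed line at the median of all promoter peaks. Of the filled peaks 29 lie above 0, and Rab40b and Rab20 lie below.

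In macrophage nuclei, fewer Rab peaks were called, and the largest count was that of distal peaks closed at 16 h, 12 of 45, a share close to that of all distal peaks, while over all Rab peaks at 16 h closed outnumbered opened peaks as deposited and opened outnumbered closed ones after median centring. Levels there come from a table scaled apart from the hepatocyte one. Of the 69 promoter peaks, 1 opened at 3 h, 4 at 8 h, 5 at 16 h and 7 at 24 h, beside 0.34%, 1.41%, 5.13% and 2.96% of all macrophage promoter peaks. Closed promoters numbered 0, 0, 3 and 0, beside 0.092%, 1.28%, 8.14% and 3.11%. Of the 45 distal peaks, 3, 1, 0 and 5 opened, beside 2.86%, 1.83%, 2.61% and 3.03% of all distal peaks. Closed distal peaks numbered 0, 3, 12 and 4, beside 0.181%, 8.21%, 25.7% and 12.8%. At 3 h, 4 of all 114 Rab peaks opened, beside 1.68% of all peaks. There limma closed 0 Rab peaks at the adjusted threshold (beside 0.139% of all) and 5 at an unadjusted p under 0.05, DESeq2 closed 0 and edgeR with TMM 0. At 1 or more times, 37 of the 114 peaks were called, beside 30.1% of all, at 24 of the 42 genes, and 0 peaks were called at all 4 times, beside 0.202%. Calls that held without any 1 mouse numbered 0 of 4 at 3 h, 2 of 8 at 8 h, 7 of 20 at 16 h and 2 of 16 at 24 h.

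The split at 16 h depended on the scaling. The median of all macrophage peaks was -0.10 on the log2 scale at that time. As deposited, 5 of all 114 Rab peaks opened and 15 closed (beside 3.79% and 17.5% of all peaks), and after median centring 16 opened and 6 closed (beside 12.5% and 8.7%). By edgeR with TMM 14 opened and 6 closed, by DESeq2 12 and 3, and after quantile normalization 9 and 4. For these settings the shares of all peaks are not given here. At 24 h, 12 opened and 4 closed as deposited (beside 3.0% and 8.28%), against 16 and 3 centred (beside 7.52% and 5.3%). Without fed 24 h mouse 1 these became 4 opened and 1 closed. At 8 h, 5 opened and 3 closed (beside 1.63% and 4.96%), against 6 and 1 centred (beside 3.83% and 1.93%). Of the closed peaks described further on, centring ended the 16 h calls of Rab43 +397 bp (adjusted p = 0.0677), Rab5a +23 bp (0.555), Rab35 +3697 bp (0.0635), Rab32 +3791 bp (0.0893) and Rab8b +37010 bp (0.0808), the 8 h call of Rab8b +37010 bp (0.0956) and the 24 h call of Rab5a +9601 bp (0.0541). The summed level of 74 peaks at the 12 macrophage marker genes was 3803 to 4662 normalized reads in fasted and 4813 to 5309 in fed mice at 16 h, so the groups did not overlap there either. The 2 peaks of Ttr, the single hepatocyte marker listed, summed to 75.6 to 94.6 in fasted and 124 to 164 in fed mice at 24 h. The part of either in the Rab results was not tested.

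Of the ER and Golgi Rabs, Rab33b again opened at its TSS peak. At 16 h it had 225, 189, 178 and 196 normalized reads in fasted mice, against 153, 155, 149 and 139 in fed mice. Fasted mice were higher with no overlap (0.39 ± 0.08 (limma adjusted p = 4.84e-04)), and the change was 0.32 at 8 h (adjusted p = 0.0111) and did not pass at 3 or 24 h (-0.04 and 0.13). In the 5′ UTR of Rab2a (+155 bp) 8 h gave 46.4, 49.9, 57.3 and 63.3 normalized reads in fasted mice, against 28.7, 33.7, 40.8 and 40.5 in fed mice. All fasted mice were higher (0.57 ± 0.15 (limma adjusted p = 0.0159)), a call lost without fasted mouse 3 (adjusted p = 0.0625), fasted mouse 4 (0.0805) or fed mouse 1 (0.0946). Rab1a diverged at 16 h. Its promoter (-111 bp) had 413, 412, 368 and 386 normalized reads in fasted mice, against 358, 342, 339.6 and 327 in fed mice. Every fasted mouse was above every fed mouse (0.21 ± 0.05 (limma adjusted p = 0.0050)). Its intergenic peak at -32270 bp had 27.1, 25.8, 27.8 and 32.7 normalized reads in fasted mice, against 47.9, 49.8, 50.9 and 35.4 in fed mice. There the fasted mice were lower, with the fed mice spread down to 35.4 (-0.65 ± 0.16 (limma adjusted p = 0.00332)). The Rab43 promoter peak at +397 bp closed at 16 h (-0.56 ± 0.19 (limma adjusted p = 0.0264)). On omission of 1 mouse this call was lost, Rab43 +397 bp at 16 h (adjusted p = 0.0514 to 0.396 without fasted mouse 1 or 4 or fed mouse 1 or 3). It was not made by other scalings and tools either, Rab43 +397 bp at 16 h (quantile normalization, edgeR and DESeq2, adjusted p = 0.149 to 0.267).

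Early endosome and recycling Rabs gave, as deposited, 2 opened and 7 closed peaks of 37 at 16 h, and 6 opened and 2 closed at 24 h, beside 3.79% and 17.5% of all macrophage peaks at 16 h and 3.0% and 8.28% at 24 h. Rab14 opened at its intronic promoter peak (+390 bp) in the first 3 times. At 8 h it had 53.4, 49.9, 53.1 and 62.5 normalized reads in fasted mice, against 29.4, 44.5, 32.5 and 35.98 in fed mice. The groups did not overlap (0.60 ± 0.16 (limma adjusted p = 0.0157)), though the call was lost without fasted mouse 4 (adjusted p = 0.0723) or fed mouse 1 (0.0804). The change was 0.58 at 3 h (adjusted p = 0.0369), a call kept only without fasted mouse 2 or fed mouse 2 of the 8 single omissions (0.0947 to 0.152 in the others), and 0.46 at 16 h (adjusted p = 0.0324). Upstream of Rab11a, which marks recycling endosomes, 2 overlapping intergenic peaks opened. That at -33822 bp had at 3 h 25.5, 32.7, 37.5 and 32.1 normalized reads in fasted mice, against 11.96, 20.9, 15.8 and 21.2 in fed mice. Fasted mice were higher without overlap (0.82 ± 0.19 (limma adjusted p = 0.00646)), and the call was lost without fasted mouse 3 (0.0536) or fed mouse 1 (0.0965). Its change of 0.65 at 24 h was called too, but not without fed mouse 1 (0.109). The overlapping peak at -33632 bp opened at 8 h (0.53 ± 0.17 (limma adjusted p = 0.0473)), with the call kept only without fed mouse 2 among the 8 single omissions, and at 24 h (0.56). Nearer to the gene, at -11759 bp, 16 h gave 11.6, 17.9, 18.8 and 16.3 normalized reads in fasted mice, against 30.9, 23.5, 24.3 and 28.1 in fed mice. Here fasted mice were lower (-0.67 ± 0.19 (limma adjusted p = 0.010)), a call lost without fasted mouse 1 (0.0662). Fewer mice also removed the calls of Rab14 +390 bp at 16 h (adjusted p = 0.0579 to 0.226 without fasted mouse 3 or 4 or fed mouse 1 or 3) and Rab11a -33632 bp at 24 h (adjusted p = 0.0512 to 0.113 without fasted mouse 1, 2 or 3 or fed mouse 1). Other scalings or tools ended the call of Rab11a -11759 bp at 16 h (quantile normalization and DESeq2, adjusted p = 0.0787 to 0.338). The Rab11a change at -11759 bp was -0.29 after quantile normalization.

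Rab5a, the founding Rab of early endosomes, closed within its intron (+9601 bp) at 16 h, with 47.2, 61.7, 47.4 and 34.2 normalized reads in fasted mice, against 86.6, 85.02, 68.8 and 69.7 in fed mice. No fasted mouse reached the lowest fed one (-0.70 ± 0.14 (limma adjusted p = 4.84e-04)), and 24 h gave -0.46 (adjusted p = 0.0266). Its promoter at +23 bp closed at 16 h by -0.21 (adjusted p = 0.0079). Rab17 had at -5570 bp at 8 h 33.01, 23.9, 22.4 and 19.7 normalized reads in fasted mice, against 36.2, 43.3, 43.3 and 35.1 in fed mice. The peak was lower in all fasted mice (-0.65 ± 0.16 (limma adjusted p = 0.00827)), a call lost without fasted mouse 4 (0.0522). Rab35, of fast recycling and phagocytic cups, closed at +3697 bp at 16 and 24 h. At 24 h it had 37.7, 54.6, 50.9 and 60.5 normalized reads in fasted mice, against 87.2, 85.1, 71.2 and 61.2 in fed mice. The highest fasted mouse, at 60.5, was just under the lowest fed mouse (-0.57 ± 0.15 (limma adjusted p = 0.0102)), and the call was lost without fasted mouse 1 (0.0821) or fed mouse 1 (0.0545). Rab21 opened at -13148 bp, the lowest of the macrophage Rab peaks in mean level (20.3). At 24 h it had 39.1, 33.3, 42.2 and 49.3 normalized reads in fasted mice, against 15.8, 21.1, 25.8 and 28.6 in fed mice. Fasted mice were all higher (0.81 ± 0.21 (limma adjusted p = 0.0085)), but not at the threshold without fed mouse 1 (0.0652). Leaving 1 mouse out removed the calls of Rab5a +9601 bp at 24 h (adjusted p = 0.0522 to 0.166 without fasted mouse 1 or 2 or fed mouse 1 or 2), Rab5a +23 bp at 16 h (adjusted p = 0.0591 without fasted mouse 1) and Rab35 +3697 bp at 16 h (adjusted p = 0.061 to 0.18 without fasted mouse 1 or fed mouse 1 or 3). Other scalings or tools ended the calls of Rab5a +23 bp at 16 h (edgeR and DESeq2, adjusted p = 0.25 to 0.313), Rab17 -5570 bp at 8 h (quantile normalization, adjusted p = 0.050) and Rab35 +3697 bp at 16 h (quantile normalization and DESeq2, adjusted p = 0.0575 to 0.0784).

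Among late endosome and lysosome Rabs, an intronic Rab7 peak (+11325 bp) changed in opposite directions at 3 and 16 h. At 3 h it had 33.98, 37.02, 46.6 and 54.3 normalized reads in fasted mice, against 30.6, 21.5, 22.5 and 31.8 in fed mice. Fasted mice were higher by a narrow gap (0.65 ± 0.17 (limma adjusted p = 0.0214)), and the call was lost without fasted mouse 3 or 4 or fed mouse 2 or 3 (adjusted p = 0.100 to 0.199). At 16 h it had 15.5, 16.5, 18.8 and 20.8 normalized reads in fasted mice, against 27.1, 26.4, 27.4 and 29.3 in fed mice. All fasted mice were then lower (-0.58 ± 0.17 (limma adjusted p = 0.0108)). The Rab7 promoter (-52 bp) opened at 24 h (0.25 ± 0.08 (limma adjusted p = 0.0336)). Rab32, which serves lysosome-related organelles and phagosomes, had in its intron (+2186 bp) at 24 h 17.8, 29.7, 24.1 and 16.4 normalized reads in fasted mice, against 54.8, 42.99, 35.6 and 40.3 in fed mice. The peak closed (-0.94 ± 0.19 (limma adjusted p = 7.28e-04)), and its other intronic peak at +3791 bp closed at 16 h (-0.60 ± 0.20 (limma adjusted p = 0.0238)). At +843 bp, the Rab32 promoter peak had at 24 h 57.6, 46.9, 52.2 and 42.4 normalized reads in fasted mice, against 58.99, 73.3, 56.05 and 71.6 in fed mice. These groups overlapped and the change did not pass (-0.37 ± 0.15 (limma adjusted p = 0.0899)). Rab7b, which acts between endosomes and the Golgi and had peaks only in the macrophage table, had at +10250 bp at 24 h 24.2, 28.5, 32.1 and 21.6 normalized reads in fasted mice, against 53.2, 51.4, 48.9 and 36.4 in fed mice. Fasted mice were lower with no overlap (-0.79 ± 0.24 (limma adjusted p = 0.0237)), a call lost without fasted mouse 1 or 4 or fed mouse 1 or 2 (0.0667 to 0.0833). With a mouse omitted, calls were lost at Rab7 -52 bp at 24 h (adjusted p = 0.0684 to 0.126 without fasted mouse 2, 3 or 4 or fed mouse 3 or 4) and Rab32 +3791 bp at 16 h (adjusted p = 0.0602 to 0.0969 without fasted mouse 1 or fed mouse 3 or 4). Other scalings or tools ended the calls of Rab7 +11325 bp at 16 h (quantile normalization, edgeR and DESeq2, adjusted p = 0.0535 to 0.338), Rab7 -52 bp at 24 h (quantile normalization, adjusted p = 0.0803) and Rab32 +3791 bp at 16 h (quantile normalization, edgeR and DESeq2, adjusted p = 0.0751 to 0.421).

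Of the exocytic Rabs, Rab3a, a Rab of regulated secretion, opened upstream of its gene (-2160 bp). At 3 h it had 40.3, 39.9, 66.1 and 62.8 normalized reads in fasted mice, against 14.6, 42.4, 25.8 and 29.4 in fed mice. The second fed mouse overlapped the fasted range (0.90 ± 0.20 (limma adjusted p = 0.00517)), and the call was lost without fasted mouse 3 (adjusted p = 0.0621), fasted mouse 4 (0.0562) or fed mouse 1 (0.136). At 24 h it had 60.4, 63.5, 56.2 and 58.8 normalized reads in fasted mice, against 29.9, 37.1, 42.7 and 35.1 in fed mice. Then the groups did not overlap (0.70 ± 0.20 (limma adjusted p = 0.0175)), though without fed mouse 1 the adjusted p was 0.0770. At the Rab8a promoter (-30 bp) 16 h gave 422, 424, 423 and 449 normalized reads in fasted mice, against 344, 387, 376 and 375 in fed mice. All fasted mice were higher (0.21 ± 0.05 (limma adjusted p = 0.00369)). An intronic peak of its paralog Rab8b (+37010 bp) had at 8 h 25.3, 25.3, 28.6 and 18.8 normalized reads in fasted mice, against 39.99, 32.5, 40.8 and 35.1 in fed mice. It was lower in each fasted mouse (-0.57 ± 0.17 (limma adjusted p = 0.0335)), a call lost without fasted mouse 2 or 4 or fed mouse 1 or 3 (0.0528 to 0.149), and it was closed at 16 h as well (-0.54, adjusted p = 0.0186). Single omissions left the 16 h calls of Rab33b (+20 bp), Rab5a (+9601 bp), Rab1a and Rab8a in place. The later call was lost as well, Rab8b +37010 bp at 16 h (adjusted p = 0.0641 to 0.0742 without fasted mouse 4 or fed mouse 1 or 3). Another normalization or tool ended the calls of Rab8b +37010 bp at 8 h (quantile normalization and DESeq2, adjusted p = 0.114 to 0.128) and Rab8b +37010 bp at 16 h (quantile normalization, edgeR and DESeq2, adjusted p = 0.0501 to 0.298).

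**Figure D4:**
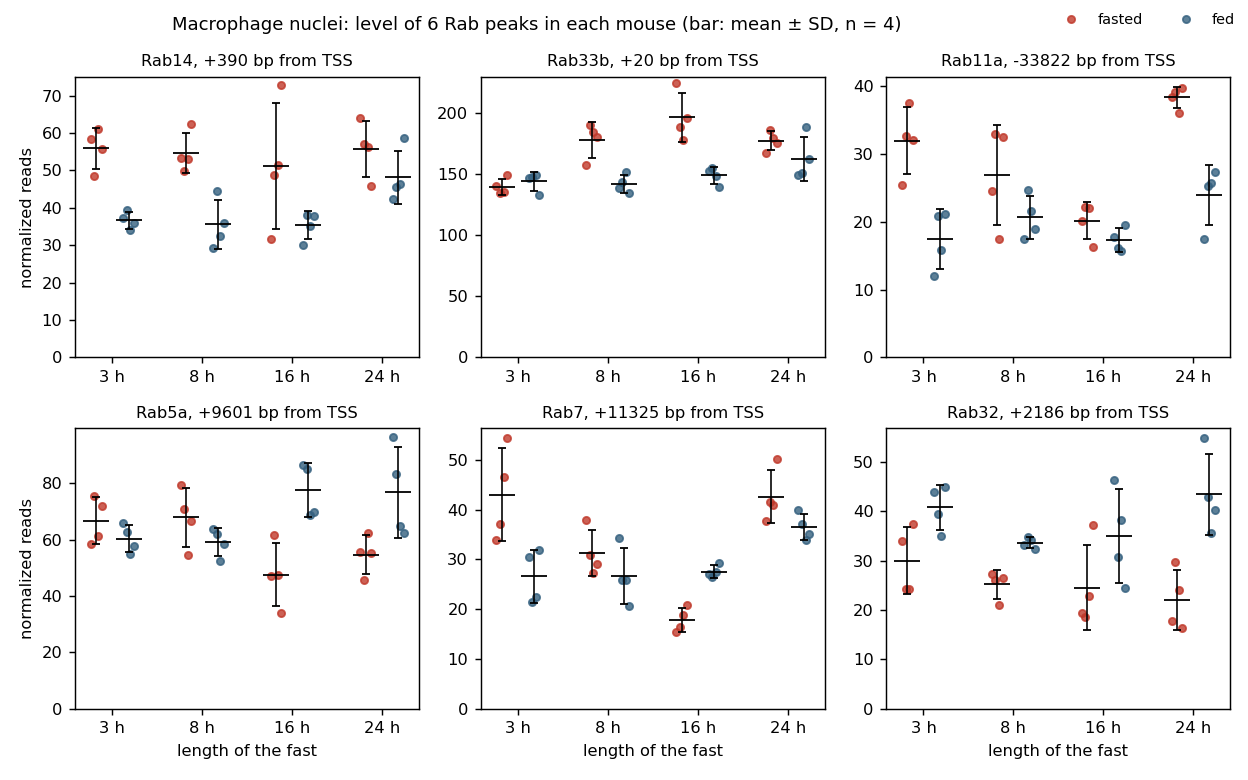
Normalized reads of each macrophage mouse at Rab peaks named in the text, fasted left of fed at each time, with bars for the mean ± SD (n = 4). The Rab7 peak at +11325 bp is higher in fasted mice at 3 h and lower at 16 h.

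Most Rab promoters were listed at the same place in both tables. Overlapping peaks of the same gene formed 54 pairs, of which 52 were promoter peaks (86.7% of the hepatocyte and 75.4% of the macrophage Rab promoter peaks) and 2 were distal (4.44% of each). Most pairs of any gene were at promoters too, 11398 of 14068. Promoter peaks of all genes numbered 16351 in hepatocytes and 14138 in macrophages, and distal peaks 30476 and 16032. Within the Rab pairs, 1 was called in both cell types at 3 h, 3 at 8 h, 2 at 16 h and 7 at 24 h, each in the same direction. Over all 14068 such pairs of any gene the shares called in both were 0.739%, 1.7%, 4.51% and 3.82%, and over the 11398 promoter pairs 0.254%, 1.11%, 3.94% and 3.4%. Of all pairs called in both, 100%, 97.1%, 95.6% and 97% had the same direction. The genes were Rab14 at 3 h, Rab14 and Rab33b at 8 h, Rab11b and Rab33b at 16 h, and Rab10, Rab14, Rab40c, Rab4b and Rab7 at 24 h. Pairs called in hepatocytes alone numbered 6, 10, 13 and 22, and in macrophages alone 0, 1, 5 and 0, beside 9.51%, 19%, 18% and 41.9% of all pairs in hepatocytes alone and 0.291%, 1.07%, 8.53% and 2.71% in macrophages alone. Whether a fasting effect differs between cell types was not tested, since the tables were scaled apart. At 24 h, the Rab10 promoter (-97 bp) had 257 ± 23.04 normalized reads in fasted and 209 ± 24.5 in fed mice in hepatocytes (SD, n = 4 each; 0.30 ± 0.08 (limma adjusted p = 0.00337)). In macrophages it had 393 ± 7.68 normalized reads in fasted and 341 ± 21.4 in fed mice (0.20 ± 0.06 (limma adjusted p = 0.0117)). The Rab4b promoter (-131 bp) changed by 0.36 in hepatocytes and 0.20 in macrophages, and Rab40c (-167 bp) by 0.39 and 0.26. In macrophages, calls were lost on single omissions at Rab4b -131 bp at 24 h (adjusted p = 0.0584 to 0.139 without fasted mouse 1, 2 or 3 or fed mouse 2, 3 or 4), Rab4b +290 bp at 24 h (adjusted p = 0.0733 to 0.131 without fasted mouse 2, 3 or 4 or fed mouse 1, 2 or 3), Rab40c -167 bp at 24 h (adjusted p = 0.0664 to 0.119 without fasted mouse 1 or 2 or fed mouse 1 or 4), Rab40c -825 bp at 24 h (adjusted p = 0.0506 to 0.199 without fasted mouse 1, 2 or 3 or fed mouse 1, 3 or 4), Rab14 -23 bp at 24 h (adjusted p = 0.0576 to 0.115 without fasted mouse 1, 2 or 4 or fed mouse 2, 3 or 4) and Rab11b +519 bp at 16 h (adjusted p = 0.0514 to 0.0969 without fed mouse 1 or 2). With the loss at Rab7 (-52 bp) given above, Rab10 was the 1 pair of the 7 at 24 h whose macrophage call no single omission removed. In hepatocytes, other scalings or tools ended the calls of Rab10 -97 bp at 24 h (quantile normalization, edgeR and DESeq2, adjusted p = 0.0892 to 0.874) and Rab14 -23 bp at 24 h (quantile normalization, adjusted p = 0.219). In macrophages, another scaling ended those of Rab4b -131 bp at 24 h (quantile normalization, adjusted p = 0.0939), Rab4b +290 bp at 24 h (quantile normalization, adjusted p = 0.0917) and Rab14 -23 bp at 24 h (quantile normalization, adjusted p = 0.0821).

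**Figure D5:**
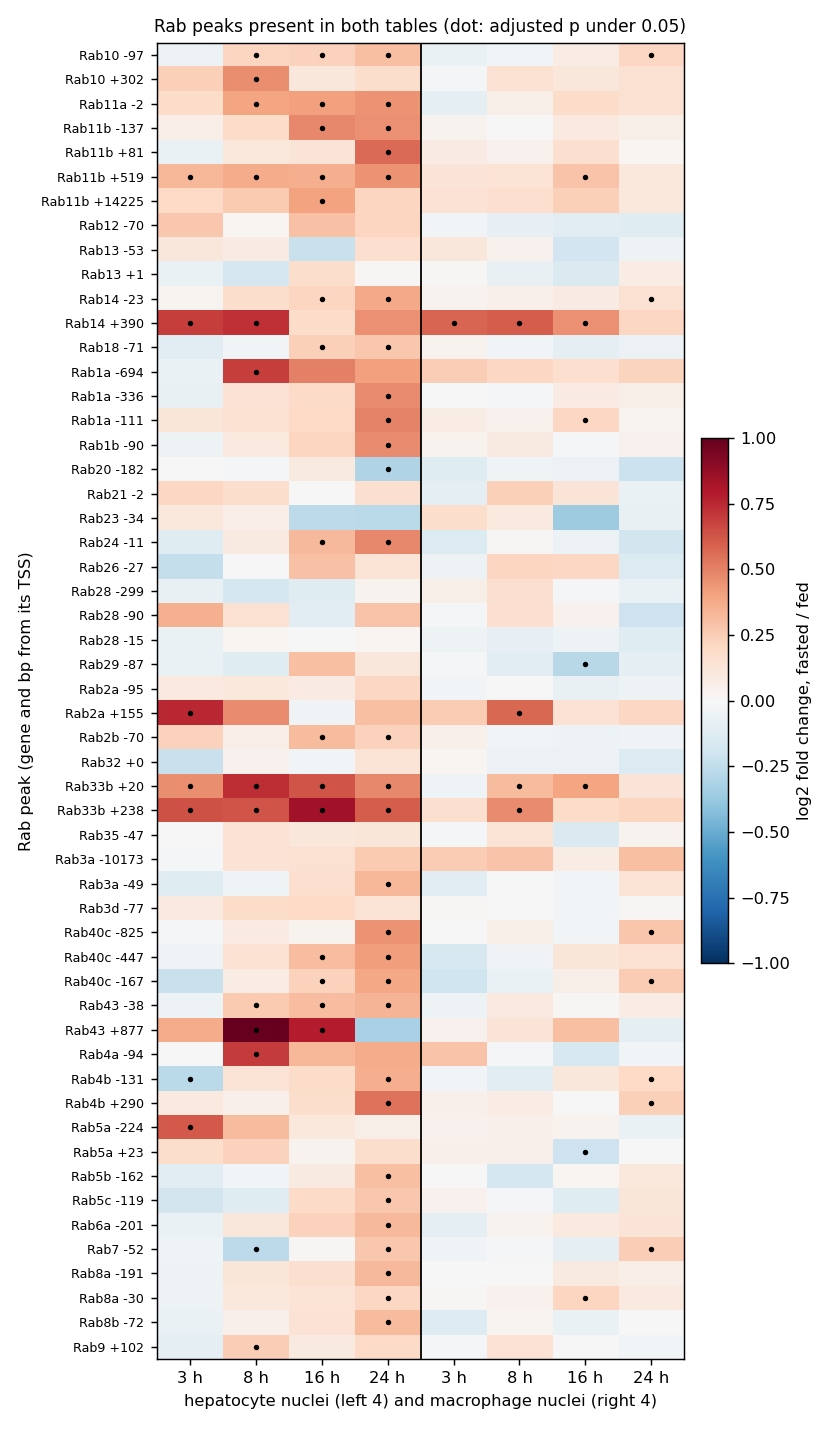
Log2 fold change (fasted over fed) at each time of the 54 Rab peaks that overlap between the tables, hepatocyte nuclei in the left columns and macrophage nuclei in the right, with a dot where the adjusted p was under 0.05. The 24 h hepatocyte column holds the most dots, and pairs called in both cell types have the same colour.

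Whether the fasting effect differed between times was asked by a moderated F test over all tested peaks. Each length of fast ended at its own hour, so a difference between lengths cannot be told apart from one between hours of the day. The F test passed at 26 of 105 hepatocyte Rab peaks, beside 24.1% of all, and at 4 of 114 macrophage Rab peaks, beside 3.49%. In hepatocytes it passed at the Rab36 peak (limma F test, adjusted p = 8.12e-05), at Rab43 +877 bp (0.00173), Rab17 +4456 bp (0.00235) and Rab40c -5829 bp (0.00839). It did not pass at Rab23 +13759 bp (0.316) or Rab33b +20 bp (0.347). In macrophages it passed at Rab5a +9601 bp (0.00604), Rab7 +11325 bp (0.00659) and Rab33b +20 bp (0.0422). Split by class, it passed at 17 of 60 hepatocyte Rab promoters and 9 of 45 distal peaks, beside 18.2% and 27.2% of all, and at 2 of 69 macrophage promoters and 2 of 45 distal peaks, beside 1.62% and 5.15%. In fed mice alone, levels differed between the 4 times at 12 hepatocyte Rab promoters and 7 distal peaks, beside 16.3% and 23.7% of all, which is 19 of 105 Rab peaks, beside 21.1%. Among these were Rab36 +8796 bp (limma F test, adjusted p = 0.00195), Rab43 +877 bp (0.0194) and Rab17 +4456 bp (0.0263), but not Rab40c -5829 bp (0.671). In macrophages, levels in fed mice differed at 0 of 114 Rab peaks by limma at the adjusted threshold, beside 1.63% of all, 1.08% of promoter and 2.11% of distal peaks, and 12 at an unadjusted p under 0.05. Some fasting effect over the 4 times was found at 38 promoter and 30 distal Rab peaks in hepatocytes, beside 60.6% and 68.0% of all (65.4% for both classes). In macrophages it was found at 16 promoter and 21 distal Rab peaks, beside 16.5% and 42.6% (30.4% for both).

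Genes that act on Rabs were taken from 4 lists, again as peaks within 50 kb. In hepatocytes at 24 h, 31 of 116 peaks opened and 5 closed at exchange factors, 41 of 126 peaks opened and 10 closed at GTPase-activating proteins, 24 of 96 peaks opened and 2 closed at effectors and 6 of 18 peaks opened and 4 closed at prenylation and GDP dissociation inhibitor genes, beside 25.3% and 11.4% of all peaks. Rabgap1l, a GTPase-activating protein gene, had at -21128 bp at 24 h 7.41 ± 1.27 normalized reads in fasted and 43.8 ± 7.34 in fed mice (SD, n = 4 each), a log2 fold change of -2.28 ± 0.23 (limma adjusted p = 5.36e-09). Tbc1d15, a GTPase-activating protein for Rab7, had at +17499 bp at 8 h 4.31 ± 1.03 normalized reads in fasted and 34.5 ± 14.3 in fed mice, or -2.43 ± 0.34 (limma adjusted p = 8.47e-07). Neither peak's groups overlapped. Among effectors, Osbpl1a, which binds Rab7 and cholesterol, opened at +33149 bp at all times and had at 8 h 93.2 ± 33.7 normalized reads in fasted and 22.4 ± 9.31 in fed mice, or 1.98 ± 0.27 (limma adjusted p = 4.35e-07). Bicd2, a dynein adaptor that binds Rab6, opened at +34228 bp at 8 and 16 h, with 36.9 ± 6.92 normalized reads in fasted and 3.83 ± 1.86 in fed mice at 8 h (2.77 ± 0.30 (limma adjusted p = 9.05e-09)), and did not at 24 h (0.03). Its fed means were 3.83 to 7.37 over the 4 times, and its fasted means at 3, 16 and 24 h were 11.4, 16.9 and 6.60. Bicd2 thus lies near the filter of 10 normalized reads, and the 8 h fasted mice bear on its being tested at all. Of the exchange factor genes, Dennd3 closed at -1148 bp at all times (-1.40 ± 0.22 (limma adjusted p = 5.57e-06) at 8 h), and Rin3, for Rab5, closed at +41329 bp from 8 h on (-1.55 ± 0.28 (limma adjusted p = 5.36e-05) at 8 h). Rabif closed at +25532 bp (-2.11 ± 0.28 (limma adjusted p = 4.38e-07) at 8 h) and Rabac1, a prenylated Rab acceptor, opened at its promoter (+652 bp, 0.62 ± 0.15 (limma adjusted p = 0.0018) at 16 h).

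In macrophages at 16 h, where the split between opened and closed peaks depended on the scaling, all 4 lists had more closed than opened peaks as deposited. There, 1 of 92 peaks opened and 6 closed at exchange factors, 3 of 108 peaks opened and 23 closed at GTPase-activating proteins, 2 of 94 peaks opened and 10 closed at effectors and 0 of 17 peaks opened and 3 closed at prenylation and inhibitor genes, beside 3.79% and 17.5% of all peaks. Tbc1d4, the GTPase-activating protein that holds back glucose transporter vesicles, had at +13346 bp at 24 h 16.7 ± 1.41 normalized reads in fasted and 33.6 ± 8.49 in fed mice (SD, n = 4 each), or -0.90 ± 0.19 (limma adjusted p = 8.42e-04). Gdi2, a GDP dissociation inhibitor, had at +9984 bp at 24 h 45.98 ± 2.82 normalized reads in fasted and 73.6 ± 5.52 in fed mice, or -0.66 ± 0.13 (limma adjusted p = 4.95e-04). Rabggtb, a subunit of the enzyme that prenylates Rabs, had at -4409 bp at 24 h 16.2 ± 1.997 normalized reads in fasted and 34.4 ± 5.04 in fed mice, or -0.99 ± 0.19 (limma adjusted p = 3.23e-04). In each of these the groups did not overlap. Tbc1d2b (-0.71 ± 0.16 (limma adjusted p = 0.00168)), Acap2 (-0.65 ± 0.15 (limma adjusted p = 0.00143)), Exoc6 of the exocyst (-0.67 ± 0.17 (limma adjusted p = 0.00462)) and the Rab5 exchange factor gene Rin2 (-0.71 ± 0.15 (limma adjusted p = 8.19e-04)) closed at 16 h. Sbf2 opened at its promoter (+617 bp) at 3, 8 and 24 h, by 0.34, 0.34 and 0.32 on the log2 scale. For the peaks of the 4 lists, in either cell type, values under other scalings, other tools or single omissions are not given here. Of the 15 Rab peaks closed in macrophages at 16 h, median centring kept 6.

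The authors' deposited table of adjusted p values, read at the same threshold, called 9 opened and 8 closed Rab peaks in hepatocytes at 3 h, 14 and 11 at 8 h, 9 and 10 at 16 h, and 27 and 12 at 24 h. In macrophages the authors' deposited table called 4 and 0, 4 and 1, 4 and 11, and 9 and 4. The shares of all peaks that the deposited values call are not given here, so these counts serve only to compare calls. Of the hepatocyte calls at 24 h in the authors' deposited table, 26 opened and 11 closed peaks were also called here, and 0 were called in the opposite direction in any comparison. The sign of the fold change in the authors' deposited table was the same as here at 102 to 105 of 105 hepatocyte and 109 to 112 of 114 macrophage Rab peaks.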

How the data were processed

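ATAC-seq was done on bead-captured nuclei of hepatocytes and macrophages from 4 female mice in each of 16 groups. Per cell type, the authors deposited a table of the signal of each mouse in 200 bp peaks. These values are whole reads divided by 1 factor per library (100% of values whole within 0.01 of a read), and the origin of this factor is not given in the sources used here. The submitters' processing notes name the genome mm10 and the tools DESeq2, HOMER, SAMtools and BWA 0.7.5a-r405, without their roles. Technical duplicates of a macrophage mouse arrive as 1 column. The authors also deposited a log2 fold change and an adjusted p-value per time, with no statement of the adjustment, and these were used only to compare calls.

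Here limma 3.58.1 in R 4.3.3 was run on log2 of the value plus 2, so that changes of low peaks are understated, with 8 group means per table, a trend in the prior variance, and Benjamini-Hochberg adjustment over all peaks that averaged 10 or more normalized reads. Peaks within 1 kb of a TSS are promoter peaks. Fold changes are fasted over fed. The mouse is the replicate. The tests of fasted against fed mice are two-sided. The limma fit of these contrasts was tried on simulated reads with changes set at 24 h alone. The F tests over several contrasts, edgeR and DESeq2 were not tried on simulated data. The Rab members, roles and lists were chosen with earlier results of these data known. Per comparison, up to 3 opened and 3 closed peaks of largest change without overlap between groups are named, 1 per gene, with the peak and the promoter peak of smallest F test p per role and up to 2 per list, and other peaks given were chosen after their values were seen. Alternatives were other offsets, filters, scalings, variance models and distances, DESeq2 1.42.0 and TMM-scaled edgeR 4.0.16 on whole reads, a library set block, each mouse left out in turn, and, chosen after seeing the data, reads in peaks as a covariate.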

Additional observations from a re-analysis of the deposited data

Results flagged for a closer look

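Of 100 groups of 4 mice at the named peaks, 6 held a mouse far from the other 3 by Dixon's criterion, which chance alone passes in about 1 in 20 groups. At 8 h in hepatocytes, fed mouse 2 had 26.9 normalized reads at Rab21 -21120 bp, against 22.6 to 22.99 in the other fed mice. At 8 h in hepatocytes, fasted mouse 1 had 17.1 normalized reads at Rab5b +6711 bp, against 7.06 to 8.05 in the other fasted mice. At 8 h in hepatocytes, fed mouse 3 had 41.8 normalized reads at Rab5b +6711 bp, against 29.8 to 31.6 in the other fed mice. At 8 h in hepatocytes, fed mouse 2 had 5.57 normalized reads at Rab9 +12948 bp, against 11.02 to 11.9 in the other fed mice. At 24 h in hepatocytes, fed mouse 2 had 36.6 normalized reads at Rab5c -9088 bp, against 57.1 to 57.7 in the other fed mice. At 16 h in macrophages, fasted mouse 4 had 449 normalized reads at Rab8a -30 bp, against 422 to 424 in the other fasted mice.

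At 12 of the 39 named peaks (20 in hepatocytes, 19 in macrophages) the fasting effect differed between times in the limma F test. It did so at 24.1% of all hepatocyte and 3.49% of all macrophage peaks. Most named peaks were picked for a large change at a single time in the same fit, so this count does not describe the Rab peaks as a set. The adjusted p and the lowest and highest log2 fold change over the 4 times follow for each. In hepatocytes these were Rab17 +4456 bp (0.00235, log2 -0.76 to 0.75), Rab21 -21120 bp (0.00993, log2 -1.27 to 0.20), Rab36 +8796 bp (8.12e-05, log2 -0.50 to 0.73) and Rab5c -9088 bp (0.0258, log2 -1.35 to -0.46). They were also Rab24 -11 bp (0.0452, log2 -0.12 to 0.48), Rab40c -447 bp (0.0203, log2 -0.03 to 0.41), Rab40c -5829 bp (0.00839, log2 -1.86 to -0.31), Rab43 +877 bp (0.00173, log2 -0.32 to 1.01) and Rab4a +7702 bp (0.0184, log2 -0.43 to 0.61). In macrophages they were Rab5a +9601 bp (0.00604, log2 -0.70 to 0.18), Rab33b +20 bp (0.0422, log2 -0.04 to 0.39) and Rab7 +11325 bp (0.00659, log2 -0.58 to 0.65).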

How the results depend on the processing

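Over 50 comparisons at the named peaks, 875 of 938 recomputed values kept their direction and their side of the threshold, 0 reversed, and 22 of the 50 had at least 1 alternative that moved them across it. Counts of called Rab peaks moved more. In hepatocytes, opened peaks numbered 12 at 8 h, 10 at 16 h and 18 at 24 h with DESeq2 (19, 20 and 36 with limma), 10 at 16 h and 19 at 24 h with edgeR and TMM, and 7 at 16 h and 13 at 24 h after quantile normalization, which closed 11 at 3 h (7 as deposited). Median centring opened 12 at 8 h. In macrophages at 16 h, opened and closed peaks numbered 12 and 3 with DESeq2, 14 and 6 with edgeR, 16 and 6 after median centring and 9 and 4 after quantile normalization, against 5 and 15. The 3 closed macrophage peaks at 8 h became 1 with DESeq2, with a filter at 30 and after median centring, 0 after quantile normalization and 6 with a block on library sets. At 24 h macrophages had 5 opened peaks with no variance trend (12 with it) and 10 closed with reads in peaks as a covariate (4 without). A limit of 10 kb, which keeps fewer peaks, left 7 opened and 4 closed at 3 h, 6 closed at 8 h and 5 closed at 16 h in hepatocytes, and 2 opened at 3 h and 1 closed at 8 h in macrophages. The number of Rab peaks within 10 kb and the share of all peaks called there are not given here. Apart from median centring, shares of all peaks are not given for the other settings either. The cause was not tested for those settings.

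With 1 mouse left out in turn, hepatocyte opened counts ranged over 8 to 12, 11 to 21, 13 to 25 and 30 to 36 at 3, 8, 16 and 24 h, and closed counts over 5 to 8, 7 to 11, 7 to 12 and 8 to 12. Macrophage opened counts ranged over 0 to 4, 2 to 5, 3 to 6 and 4 to 9, and closed counts over 0 to 0, 0 to 5, 9 to 19 and 1 to 5. No paired analysis was possible because the labels give mice no shared numbers across groups. The lowest hepatocyte Rab peak in mean level, Rab9 at +12948 bp, averaged 20.7 normalized reads, and whether depth bears on the lost calls was not tested.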

Other observations

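Beyond 50 kb, each table held 6 further peaks named for a Rab gene, which was Rab11a, Rab28 or Rab31. In hepatocytes the peak at +143067 bp of Rab11a, the recycling endosome gene, had at 16 h 3.27 ± 2.38 normalized reads in fasted and 23.9 ± 4.98 in fed mice (-2.39 ± 0.31, limma adjusted p = 2.45e-07), given as mean ± SD of 4 mice with the log2 fold change ± SE. At 8 h it had 8.53 ± 3.56 normalized reads in fasted and 30.3 ± 5.16 in fed mice (-1.67 ± 0.31, limma adjusted p = 5.02e-05). Its neighbour at +146856 bp had at 16 h 70.97 ± 21.5 normalized reads in fasted and 113 ± 6.46 in fed mice (-0.71 ± 0.14, limma adjusted p = 2.25e-04). The peak at +59673 bp of Rab31, a trans-Golgi and endosome Rab with no hepatocyte peak nearer by, had at 16 h 36.3 ± 13.4 normalized reads in fasted and 69.6 ± 8.69 in fed mice (-0.96 ± 0.17, limma adjusted p = 4.49e-05). In macrophages, where Rab31 had the most peaks of any Rab gene within 50 kb, its peak at +55115 bp had at 24 h 31.2 ± 3.84 normalized reads in fasted and 59.8 ± 10.1 in fed mice (-0.89 ± 0.17, limma adjusted p = 2.61e-04).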
